A study of Saccharomyces cerevisiae with 7 samples.

Results

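The genes that code for the proteins of the large (60S) ribosomal subunit were followed through 7 budding yeast RNA-seq libraries. Members were the genes with an RPL symbol, with or without a final A or B, together with the stalk genes *RPP0*, *RPP1A*, *RPP1B*, *RPP2A* and *RPP2B*. This gave 81 genes of the 5110 in the files, 76 RPL and 5 RPP. They form 46 families, of which 35 are pairs of paralogs (70 genes, named A and B) and 11 are single genes. All 81 had reads in every library, between 7 (*RPL15B* in a triple mutant without Fpr3, Fpr4 and Trf5) and 6222 (*RPL3* in Δ*sir2*). The study asked what the nucleolar histone chaperones Fpr3 and Fpr4, a paralog pair of the FKBP family, do to transcription.

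Each genotype was sequenced as 1 library of a mid-log culture in YPD. The survey set 4 mutants against wild type BY4741: the single mutants Δ*fpr3* and Δ*fpr4*, the double mutant Δ*fpr3*Δ*fpr4*, and Δ*sir2* yeast without the silencing deacetylase Sir2. According to the methods, the double mutant was made from Δ*fpr3* by replacing *FPR4* with a drug marker. The 2 remaining libraries are meiotic progeny of a genetic screen, the triple mutant Δ*fpr3*Δ*fpr4*Δ*trf5* and its partner, Δ*fpr3*Δ*trf5*. Fpr3 is missing from both. By the selection that the methods give for progeny without Fpr3, Δ*fpr3*Δ*trf5* carries *FPR4* on a plasmid and a drug marker in place of the chromosomal copy. Both lack Trf5, the poly(A) polymerase of a TRAMP complex that hands RNAs to the nuclear exosome. Their strain background differs from that of the survey, so background and Trf5 loss cannot be told apart, and fold changes of these 2 libraries are between them. The test, ranges and SDs over all 7 libraries, given further on, mix both backgrounds. Each culture was grown from a single colony. With 1 library each, differences carry no check by replicates, and tests on reads speak of 2 libraries rather than of 2 genotypes.

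The large subunit joins amino acids at its peptidyl transferase centre, passes the chain through an exit tunnel and receives the translation factors at a protein stalk. Its proteins are assembled onto rRNA in the nucleolus, and dividing yeast spends much of its mRNA synthesis on them. Most ribosomal protein genes of yeast are duplicated, with products that are nearly identical, and many carry an intron although introns are rare in this genome. Their promoters commonly bind Rap1, which recruits Fhl1 and Ifh1, and a smaller group binds Abf1 or Reb1. Of the 81 genes, 53 had an intron in the annotation and 28 had none. *RPL7A* and *RPL7B* had 2 introns each.

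A stretch that fits the 10-letter Rap1 consensus was searched in the 500 bases before each start codon, on both strands. It was found before 22 of the 81 genes (27.2%), before 20 of 57 small-subunit genes (35.1%) and before 85 of all 5037 promoters of that length (1.69%). The 13-letter Abf1 consensus occurred before 7 large-subunit genes (8.64%, against 19.7% of all promoters), and the Reb1 letters TTACCCG before 5 (6.17%, against 10.8%). These shares describe letters and not binding, and overlaps between the motifs were not removed. The 5 genes below are shown because they held a Rap1 match and were called higher in the double mutant than in wild type. Their stretches are printed from the R64 (sacCer3) genome on the strand of the gene, 5′ to 3′, with the match in capitals. They lie at chrXI:431425-431574 (*RPL14A*, plus strand), chrV:396310-396459 (*RPL23B*, plus), chrVIII:126033-126182 (*RPL27A*, plus), chrVII:438690-438839 (*RPL30*, plus) and chrIV:222067-222216 (*RPL41B*, minus).
RPL14A: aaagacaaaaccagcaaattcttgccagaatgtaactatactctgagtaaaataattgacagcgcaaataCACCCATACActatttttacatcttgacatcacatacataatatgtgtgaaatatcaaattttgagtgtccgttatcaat
RPL23B: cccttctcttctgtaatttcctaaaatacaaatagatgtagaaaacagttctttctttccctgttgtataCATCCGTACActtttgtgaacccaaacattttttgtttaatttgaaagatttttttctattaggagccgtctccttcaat
RPL27A: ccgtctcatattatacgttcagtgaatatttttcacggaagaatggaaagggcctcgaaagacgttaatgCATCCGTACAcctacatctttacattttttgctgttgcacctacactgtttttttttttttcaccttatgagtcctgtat
RPL30: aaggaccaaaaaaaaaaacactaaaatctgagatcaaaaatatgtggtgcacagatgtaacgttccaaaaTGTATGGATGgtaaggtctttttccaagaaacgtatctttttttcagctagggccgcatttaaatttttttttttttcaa
RPL41B: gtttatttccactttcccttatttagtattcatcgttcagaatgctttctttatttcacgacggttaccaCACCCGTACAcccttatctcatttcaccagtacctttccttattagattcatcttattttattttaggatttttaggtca
The match of *RPL30* reads on the opposite strand, and those of *RPL23B* and *RPL27A* have the same letters.

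Counted reads came to between 627679 and 1242534 per library, and the median gene had 35 to 55 reads. The deleted genes had 0 reads in their own libraries except *TRF5*, with 2 reads in the triple mutant. Large-subunit genes took 8.37% of all reads in Δ*fpr3*, 8.03% in Δ*fpr4*, 7.93% in the double mutant, 9.30% in Δ*sir2* and 7.41% in wild type, so wild type had the lowest share of the survey. Their share was 11.0% in the triple mutant and 9.77% in Δ*fpr3*Δ*trf5*. Their 95% Wilson intervals cover counting error only and were narrow, such as 10.9% to 11.0% in the triple mutant. Small-subunit genes also took the most reads of the survey in Δ*sir2* and the fewest in wild type, with 6.18%, 6.22%, 6.35% and 7.38% in the mutants in the same order, against 5.61% in wild type. They took 7.43% in the triple mutant and 7.41% in Δ*fpr3*Δ*trf5*. In bulk RNA a larger share of these genes and a smaller share of all others cannot be told apart.

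Levels were given by the authors as RPKM, which are reads scaled by the length of the gene and by the counted reads of the library. Between 73 and 77 of the 81 genes were in the top decile of all genes in each library, and their median was 1009 RPKM in wild type, against 37.3 RPKM for all genes. The highest in wild type was *RPL5*, which binds 5S rRNA, at 4308 RPKM. It was followed by the stalk base *RPP0* at 3999 RPKM, *RPL10*, a late-joining protein near the peptidyl transferase centre, at 3949 RPKM, *RPL3*, another protein of that centre, at 3872 RPKM and *RPL15A* at 3777 RPKM. The lowest were *RPL15B* at 44.6 RPKM, *RPL22B* at 102 RPKM, *RPL7B* at 113 RPKM, *RPL39* at 155 RPKM and *RPL14B* at 226 RPKM. The length in an RPKM includes introns: *RPL39*, a small protein of the exit tunnel, has 156 coding bases in a gene of 542 bases, and over the coding bases alone its wild type level was 539.5 RPKM.

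**Figure D1:**
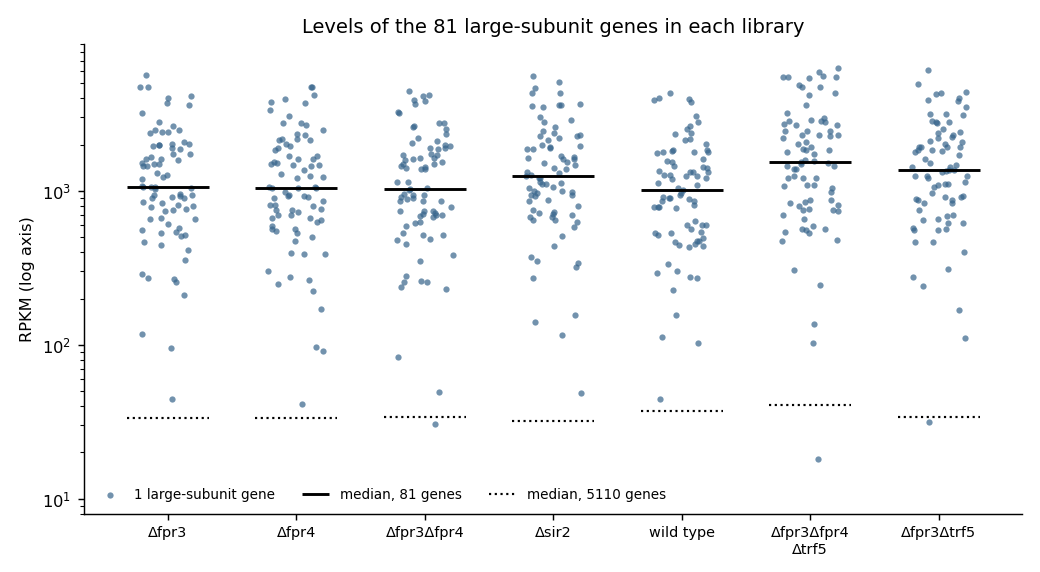
RPKM (log axis) of each of the 81 large-subunit genes (points) in the 7 libraries, with the median of the 81 genes (solid line) and of all 5110 genes (dotted line). The lowest point of each library is *RPL15B*, at 18.1 RPKM in the triple mutant and 48.4 RPKM in Δ*sir2*.

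A gene was called when its reads against all other reads of 2 libraries differed by a chi-square test with Benjamini-Hochberg adjusted p under 0.05 over all genes tested, and its RPKM (plus 1) differed by at least 1.3-fold. At a 1.5-fold threshold the called members were fewer, 2 for Δ*fpr3*, 1 for Δ*fpr4*, 4 for the double mutant (2 higher) and 6 for Δ*sir2* against wild type. There were 17 (13 higher) for the triple mutant against Δ*fpr3*Δ*trf5*. Of all genes, 137 of 4771 were then higher and 286 lower in Δ*fpr3*, and 129 and 310 of 4777 in Δ*fpr4*. They were 164 and 337 of 4755 in the double mutant, 143 and 541 of 4766 in Δ*sir2*, and 868 and 255 of 4733 in the triple mutant. At this threshold the share of members called higher exceeded that of all genes only in Δ*sir2*. In Δ*fpr3*, 16 of the 81 genes were called higher than in wild type and 0 lower, where 12.3% of all 4771 tested genes were called (4.19% higher and 8.07% lower). The median log2 fold change was 0.17 over the 81 genes and -0.10 over all genes. Both genes of *RPL41*, the smallest ribosomal protein and a bridge to the small subunit, headed the list: *RPL41B* had 160 reads in Δ*fpr3* and 103 in wild type (log2 fold change 0.64, 95% interval 0.27 to 1.01), and *RPL41A* had 342 and 225 (0.60). *RPP0*, which anchors the stalk, had 5800 reads in Δ*fpr3* and 4104 in wild type (0.50, interval 0.44 to 0.56, adjusted p = 1.53e-62). *RPL23B* rose by 0.48 and *RPL14A* by 0.48 on the log2 scale. The other 11 called genes, among them *RPP1A* of the stalk and *RPL23A*, lay between 0.40 and 0.47. With the median of all genes set to 0, 19 were called higher and 0 lower, where 300 of the 4771 genes were higher and 213 lower.

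In Δ*fpr4*, 9 of the 81 genes were called higher than in wild type and 0 lower, where 13.1% of all genes were called (3.87% higher and 9.27% lower). The medians were 0.10 over the 81 genes and -0.10 over all genes. *RPL30*, a bridge protein that also binds its own pre-mRNA, had 595 reads in Δ*fpr4* and 357 in wild type (log2 fold change 0.66, interval 0.47 to 0.86, adjusted p = 3.52e-10). *RPL26B* followed at 0.54, then *RPL9B* at 0.48, *RPL14A* at 0.48 and *RPL1B* at 0.45. The paralog *RPL1A* was called as well, at 0.44, but *RPL1A* and *RPL1B* share 99.4% of their coding bases and only 38.7% of their 100-base windows are unique in the genome, so the split of reads between them is uncertain. Setting the median of all genes to 0 raised the count to 16 higher and 0 lower, where 292 of all 4777 genes were higher and 258 lower.

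In the double mutant, 12 of the 81 genes were called higher than in wild type and 3 lower, where 14.4% of all genes were called (5.07% higher and 9.36% lower). The medians were 0.13 over the 81 genes and -0.09 over all genes. The 4 largest rises were in genes with at most 237 coding bases. *RPL41B* had 165 reads in the double mutant and 103 in wild type (log2 fold change 0.79, interval 0.43 to 1.16, adjusted p = 1.74e-04), *RPL39* had 130 and 92 (0.61), *RPL41A* had 306 and 225 (0.56), *RPL38* had 625 and 464 (0.54) and *RPL26B* had 546 and 408 (0.53). With the median of all genes set to 0, 22 were called higher and 3 lower, where 356 of all 4755 genes were higher and 302 lower. All 3 comparisons above use the same wild type library. When the Δ*sir2* library took its place, the medians of the 81 genes turned to -0.20 for Δ*fpr3*, -0.26 for Δ*fpr4* and -0.20 for the double mutant.

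The 3 genes that were lower in the double mutant were *RPL7B*, *RPL9B* and *RPL8A*, each the member of a pair with fewer reads in wild type. *RPL9B* (chrXIV:499681-500256, plus strand, no intron) codes for a protein near the factor-binding site of the subunit. It had 543 RPKM in Δ*fpr3*, 752 RPKM in Δ*fpr4*, 256 RPKM in the double mutant, 647 RPKM in Δ*sir2* and 538 RPKM in wild type. The double mutant was the lowest of the 5, and Δ*fpr4* the highest. The log2 fold change of the double mutant over wild type was -1.07 (149 and 339 reads, interval -1.36 to -0.79, adjusted p = 8.09e-13). *RPL7B* (chrXVI:173152-174702, plus strand) had 95.6 RPKM in Δ*fpr3*, 97.0 RPKM in Δ*fpr4*, 49.2 RPKM in the double mutant, 116 RPKM in Δ*sir2* and 113 RPKM in wild type. Its log2 fold change in the double mutant was -1.19 (77 and 192 reads, interval -1.60 to -0.81, adjusted p = 9.16e-09). An intron of *RPL7B* holds the snoRNA gene *SNR59* on the same strand, and reads of this RNA inside the gene boundaries cannot be separated from those of *RPL7B*. The same limit holds for *RPL7A*, which has *SNR39* within its boundaries. *RPL8A* (chrVIII:35255-36025, minus strand, no intron), whose protein acts early in assembly, had 1049 RPKM in Δ*fpr3*, 1066 RPKM in Δ*fpr4*, 723 RPKM in the double mutant, 1394 RPKM in Δ*sir2* and 1009 RPKM in wild type. Its log2 fold change was -0.48 (563 and 850 reads, adjusted p = 3.33e-08).

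The same genes were lower when the double mutant was set against either single mutant, comparisons that were chosen after the data had been seen. Against Δ*fpr3*, 0 of the 81 genes were called higher and 5 lower, where 9.99% of all genes were called (5.09% higher and 4.9% lower). These were *RPL9B* (-1.08), *RPL7B* (-0.94), *RPP0* (-0.79), *RPL8A* (-0.54) and *RPL11B* (-0.45), the last a 5S rRNA binding protein whose pair has few unique windows (46.7%). Against Δ*fpr4*, *RPL9B* (-1.55), *RPL7B* (-0.97) and *RPL8A* (-0.56) were called lower and *RPL41B* (0.62) higher, where 6.26% of all genes were called (3.59% higher and 2.67% lower). *RPP0* had 5653 RPKM in Δ*fpr3*, 3711 RPKM in Δ*fpr4*, 3270 RPKM in the double mutant, 4336 RPKM in Δ*sir2* and 3999 RPKM in wild type, so only its Δ*fpr3* value stood well above the others of the survey.

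The difference of the double mutant from wild type was also set against the sum of the differences of both single mutants. For *RPL9B* the double mutant minus this sum was -1.57 on the log2 scale (95% interval -1.91 to -1.22, counting error only). The values were -0.73 for *RPL7B* (interval -1.23 to -0.24), -0.68 for *RPP0* and -0.62 for *RPL8A*. Over the 81 genes the median was -0.13, with 36 intervals (44.4%) below 0 and 3 above. Over 2135 other genes with at least 50 reads in each of these libraries the median was 0.10, with 10.7% of intervals below 0 and 19.7% above. The 2 sets were not matched for reads, and genes with more reads, as many of the 81 have, get narrower intervals. The wild type library enters this measure with a positive sign, and it had the lowest large-subunit share of the survey.

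The A and B genes of *RPL8* and *RPL9* are alike, with 38 mismatches in 771 coding bases for *RPL8* and 36 in 576 for *RPL9*. *RPL8A* and *RPL8B* share 95.1% of their coding bases and 100% of their 100-base windows are unique, and *RPL9A* and *RPL9B* share 93.8% with 97.7% unique windows. To show how they differ, the 120 coding bases with the most mismatches are printed, with the differing bases in capitals, from chrVII:227759-227878 (*RPL9A*, minus strand), chrXIV:500132-500251 (*RPL9B*, plus), chrVIII:35582-35701 (*RPL8A*, minus) and chrXII:48186-48305 (*RPL8B*, minus).
RPL9A: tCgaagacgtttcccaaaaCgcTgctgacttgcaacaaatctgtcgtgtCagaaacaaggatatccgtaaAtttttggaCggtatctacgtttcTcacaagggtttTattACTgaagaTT
RPL9B: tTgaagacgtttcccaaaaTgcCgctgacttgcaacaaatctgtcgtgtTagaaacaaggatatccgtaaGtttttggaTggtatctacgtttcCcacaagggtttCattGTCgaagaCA
RPL8A: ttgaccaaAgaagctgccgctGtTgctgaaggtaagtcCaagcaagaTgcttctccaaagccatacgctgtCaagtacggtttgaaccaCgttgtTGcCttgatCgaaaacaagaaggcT
RPL8B: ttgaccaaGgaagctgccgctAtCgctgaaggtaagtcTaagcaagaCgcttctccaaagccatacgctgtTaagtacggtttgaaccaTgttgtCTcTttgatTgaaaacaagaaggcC
There are 13 differing bases in the *RPL9* stretch and 12 in the *RPL8* stretch.

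**Figure D2:**
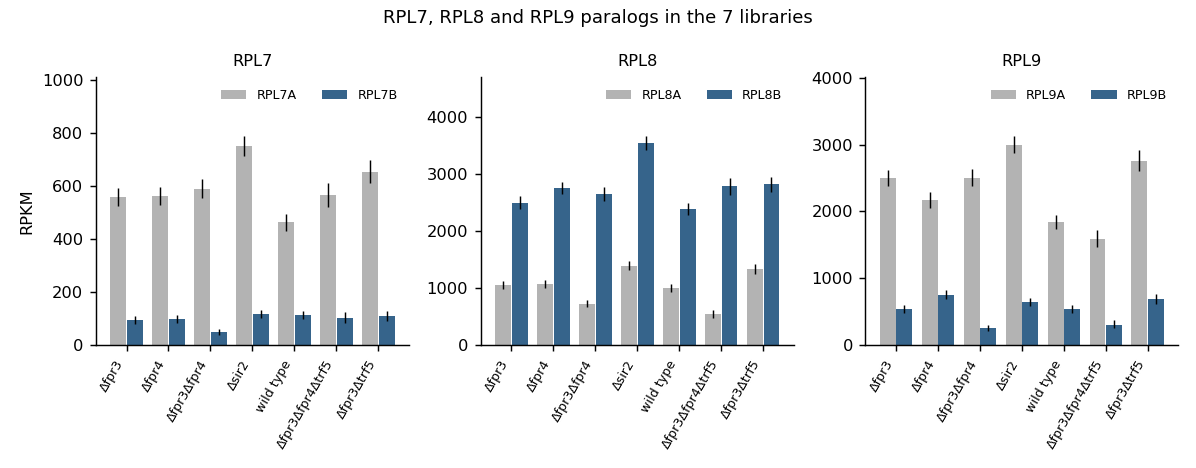
RPKM of the A gene (grey) and B gene (blue) of *RPL7*, *RPL8* and *RPL9* in the 7 libraries. Bars are single libraries and the error bars are exact 95% Poisson intervals of the reads. *RPL7B*, *RPL8A* and *RPL9B* are lowest among the survey libraries in the double mutant.

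**Figure D3:**
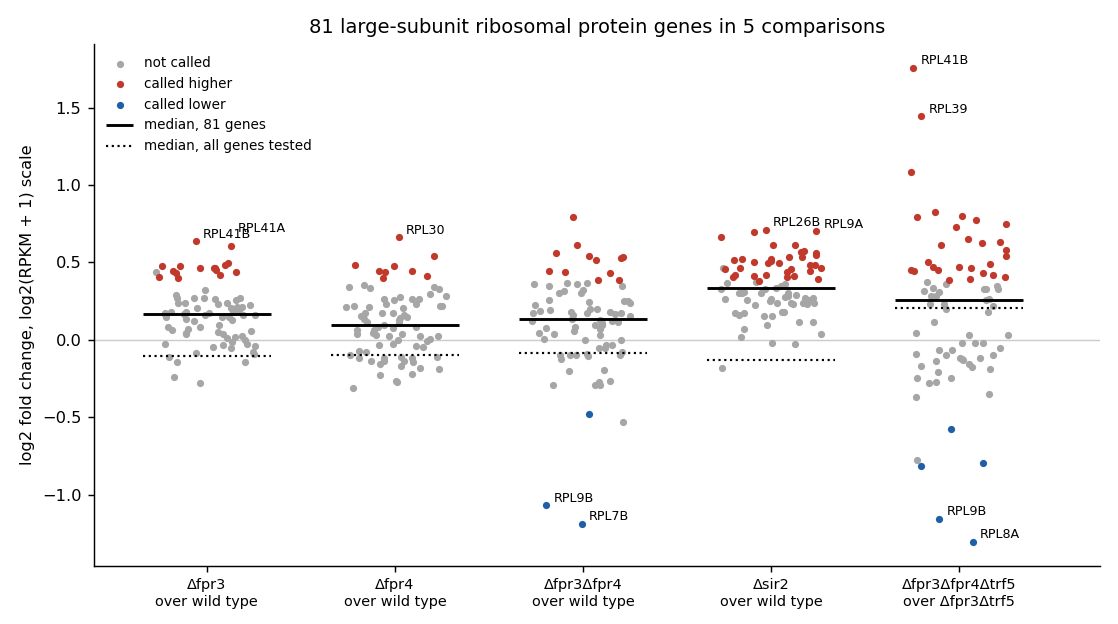
Log2 fold change, on the log2(RPKM + 1) scale, of the 81 large-subunit genes in 5 comparisons of 2 libraries. Red points were called higher and blue points lower in the first-named genotype, solid lines are medians of the 81 genes (0.17, 0.10, 0.13, 0.33 and 0.26 from left to right) and dotted lines medians of all genes tested. Called lower points appear only for the double mutant (3 genes) and the triple mutant (5 genes).

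In Δ*sir2*, 35 of the 81 genes were called higher than in wild type and 0 lower, where 19.8% of all genes were called (5.2% higher and 14.6% lower). The medians were 0.33 over the 81 genes and -0.13 over all genes, and of 57 small-subunit genes 28 were higher, with a median of 0.39. The largest rises were *RPL26B* (log2 fold change 0.71, 760 and 408 reads), *RPL9A* (0.70, 2146 and 1160 reads), *RPL7A* (0.70, 1551 and 841 reads), *RPL30* (0.67, 645 and 357 reads) and *RPL23A* (0.61, 825 and 474 reads). *RPL9A* and *RPL7A* are the partners of genes that were low in the double mutant. Fold changes were modest: 6 of the 35 passed 1.5-fold and 0 passed 2-fold. With the median of all genes set to 0, 57 were called higher and 0 lower, where 419 of all 4766 genes were higher and 458 lower.

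The widest changes of the 5 comparisons were those of the triple mutant, where 28 of the 81 genes were called higher than in Δ*fpr3*Δ*trf5* and 5 lower. Of all genes, 28.1% were called (20.7% higher and 7.42% lower). The median log2 fold change was 0.26 over the 81 genes and 0.20 over all genes, while that of 57 small-subunit genes was 0.00, with 15 higher and 11 lower. With the median of all genes set to 0, 13 of the 81 genes were called higher and 14 lower, and their median was 0.05. At that setting 623 of all 4733 genes were higher and 643 lower, shares close to those of the 81. *RPL41B* had 267 reads in the triple mutant and 103 in Δ*fpr3*Δ*trf5* (log2 fold change 1.76, interval 1.43 to 2.10, adjusted p = 3.72e-27). *RPL39* had 255 and 122 reads (1.44, interval 1.13 to 1.77), *RPL36A* had 317 and 195 (1.08), and the stalk genes *RPP1A* (0.83) and *RPP2A* (0.80) followed. *RPL8A* was lowest, with 262 and 846 reads (-1.31, interval -1.51 to -1.11, adjusted p = 4.07e-38). *RPL9B* had 111 and 323 reads (-1.15), *RPL18B* had 85 and 196 (-0.82), *RPL9A* had 574 and 1301 (-0.80) and *RPL2A* had 793 and 1542 (-0.57). All 10 of these genes kept their call with the median of all genes set to 0.

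Coding length ran with the fold change in this comparison. Over the 81 genes, Spearman's rho between coding length and log2 fold change was -0.64, and it was -0.35 over 4636 other genes. Genes share the 2 libraries and are not independent replicates. Of the 9 large-subunit genes with at most 300 coding bases, 8 were called higher and the median was 0.73. Of 116 other genes of that length, 60 were higher (51.7%) and 0 lower, with a median of 0.93. The median of the 56 genes with 300 to 600 coding bases was 0.27, with 20 higher (35.7%) and 3 lower. That of 536 other genes was 0.72, with 209 higher (39.0%) and 11 lower. Of the 16 genes with 600 to 1200 coding bases, 0 were higher and 2 lower, with a median of -0.18. Of 1410 other genes, 341 were higher (24.2%) and 57 lower, with a median of 0.35. In each length class the median of the large-subunit genes was the lower one. In the double mutant over wild type rho was -0.40 for the 81 genes and -0.15 for 4661 others, and in Δ*fpr3*, Δ*fpr4* and Δ*sir2* over wild type it was -0.23, -0.04 and -0.04 for the 81 genes. The libraries also differed in depth, with 627679 reads in the triple mutant and 819135 in Δ*fpr3*Δ*trf5*, and the part of depth in this relation was not tested.

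**Figure D4:**
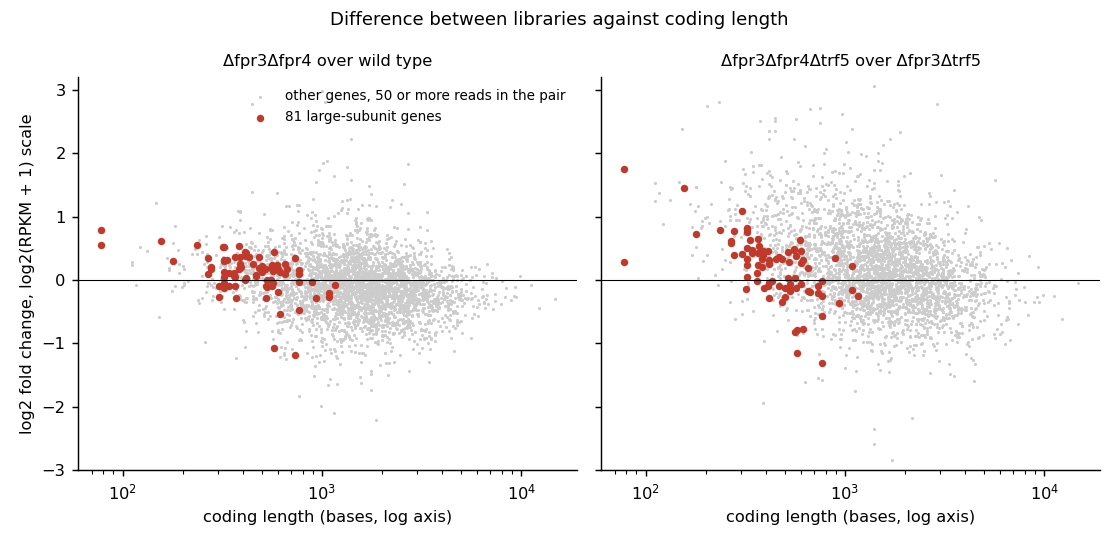
Log2 fold change, on the log2(RPKM + 1) scale, against coding length (log axis) for the double mutant over wild type (left) and the triple mutant over Δ*fpr3*Δ*trf5* (right). Red points are the 81 large-subunit genes and grey points are other genes with at least 50 reads in the 2 libraries, 3437 on the left and 3086 on the right, with 3 and 10 more outside the axis. The red points slope down, more so on the right.

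Genes with an intron had a median log2 fold change of 0.33 in the triple mutant over Δ*fpr3*Δ*trf5* (22 of 53 higher, 2 lower), and genes without one -0.06 (6 of 28 higher, 3 lower). Of all genes, 20.7% were higher and 7.42% lower there. The longest coding sequences, such as *RPL3* (1164 bases) and *RPL4A* and *RPL4B* (1089 bases), lack an intron. Intron and coding length were therefore not separated in this split. Over wild type, the median with an intron was 0.17 in Δ*fpr3*, against 0.16 without one, and 0.07 in Δ*fpr4*, against 0.15. It was 0.17 in the double mutant, against 0.11, and 0.35 in Δ*sir2*, against 0.30. Genes with a Rap1 match had a median of 0.18 in the double mutant over wild type (5 of 22 higher, 0 lower), and those without a match 0.11 (7 of 59 higher, 3 lower). In that comparison 5.07% of all genes were higher and 9.36% lower. The order was the other one in Δ*fpr4*, at 0.06 with a match and 0.12 without. With and without a match the medians were 0.17 and 0.17 in Δ*fpr3*, 0.34 and 0.33 in Δ*sir2*, and 0.33 and 0.18 in the triple mutant over Δ*fpr3*Δ*trf5*. The 3 genes that were low in the double mutant held no match in the window searched.

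By place in the subunit the lists are short, and differences between the lists were not tested. In the stalk (*RPP0*, the P1 and P2 proteins that recruit translation factors, and the *RPL12* pair at its base) 3 of 7 genes were called higher in the triple mutant than in Δ*fpr3*Δ*trf5*, where 20.7% of all genes were higher and 7.42% lower. These were *RPP1A*, *RPP2A* and *RPP2B*. *RPP1A* had 5489 RPKM in the triple mutant and 3096 RPKM in Δ*fpr3*Δ*trf5*, and *RPP1B* had 2313 and 1833 RPKM. *RPP2A* had 5514 and 3168 RPKM, and *RPP2B* had 6267 and 4040 RPKM. The rest of the stalk list was lower in the triple mutant, without a call. *RPP0* had 4729 and 6095 RPKM, *RPL12A* 2319 and 2797 RPKM, and *RPL12B* 2905 and 3157 RPKM. In the survey the stalk had 2 higher genes in Δ*fpr3* (*RPP0* and *RPP1A*), 0 in Δ*fpr4*, 0 in the double mutant and 2 in Δ*sir2* (*RPL12A* and *RPL12B*), with 0 lower throughout, where 4.19%, 3.87%, 5.07% and 5.2% of all genes were higher in these mutants in that order. Of the 5 genes of bridge proteins (*RPL24A*, *RPL24B*, *RPL30*, *RPL41A* and *RPL41B*), 3 were higher in Δ*fpr3*, 1 in Δ*fpr4*, 3 in the double mutant and 3 in Δ*sir2* than in wild type. Of the 14 genes of the exit tunnel and its rim, 5 were higher in the triple mutant than in Δ*fpr3*Δ*trf5* and 0 lower. The 4 genes of the peptidyl transferase centre (*RPL2A*, *RPL2B*, *RPL3* and *RPL10*) had 0 higher and 1 lower there, and in the survey were called only in Δ*sir2*, where *RPL10* and *RPL2B* were higher. The 3 genes of the 5S rRNA proteins (*RPL5*, *RPL11A* and *RPL11B*) were called once in these 5 comparisons, *RPL11B* in Δ*sir2*.

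The share of a pair's reads that came from the A gene was then compared by Fisher's exact test, adjusted over 61 A/B pairs (35 large-subunit pairs, 24 small-subunit pairs, *COX5* and *NHP6*). This measure does not depend on how libraries are scaled. In wild type the A gene had over 50% of the reads in 20 of the 35 pairs and under 50% in 15, and the 95% Wilson interval left out 50% in 32. The most unequal were *RPL15* (98.8% A), *RPL22* (85.9%), *RPL18* (84.3%), *RPL7* (81.4%) and *RPL9* (77.4%) on the A side, and *RPL36* (23.7% A), *RPL8* (29.8%), *RPL16* (32.6%), *RPL13* (33.0%) and *RPL42* (38.5%) on the B side. Of the 35 pairs, 28 kept the same major gene in all 7 libraries. The other 7 (*RPL1*, *RPL6*, *RPL19*, *RPL26*, *RPL34*, *RPL41* and *RPP1*) crossed 50%.

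**Figure D5:**
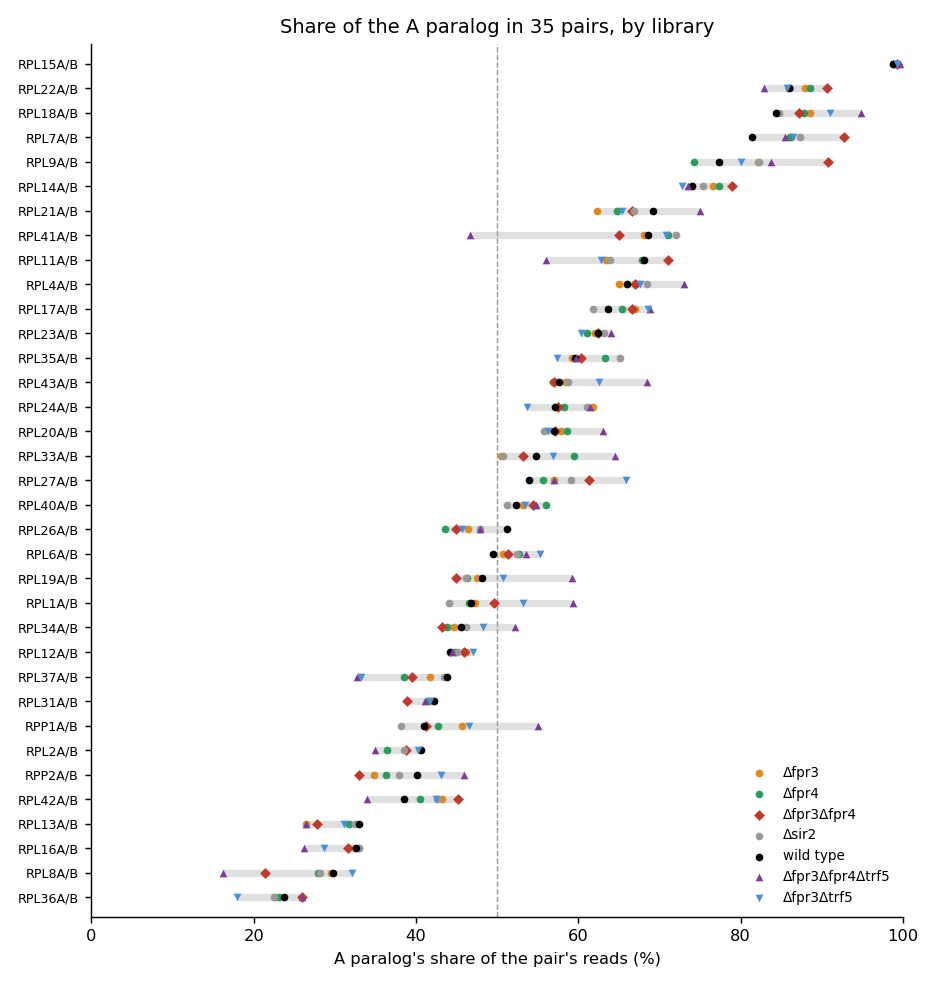
Share of the A gene in the reads of each of 35 pairs (%), 1 symbol per library, with pairs ordered by their wild type share and grey bars from the lowest to the highest library. *RPL41*, *RPP1*, *RPL9* and *RPL8* span the widest ranges, at 25.4, 16.9, 16.5 and 15.9 points.

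Against wild type, the A share was called different in 10 of 35 pairs in Δ*fpr3* (31.1% of all 61 pairs were called), 8 in Δ*fpr4* (27.9%), 10 in the double mutant (29.5%) and 3 in Δ*sir2* (18%). In Δ*fpr3* the largest shifts were in *RPL21* (62.3% A in Δ*fpr3* and 69.2% in wild type), *RPL13* (26.5% and 33.0%) and *RPP2* (34.8% and 40.1%). In Δ*fpr4* they were in *RPL26* (43.6% A in Δ*fpr4* and 51.2% in wild type) and *RPL37* (38.5% and 43.8%). In the double mutant they were the pairs named above: *RPL9* was 90.7% A in the double mutant (95% Wilson interval 89.2% to 92.0%) and 77.4% in wild type (75.2% to 79.4%). *RPL7* was 92.8% A in the double mutant and 81.4% in wild type, and *RPL8* was 21.4% and 29.8%. *RPL27* (61.3% and 53.9%) and *RPP2* (33.0% and 40.1%) followed. For *RPL7* wild type was itself the lowest of the 7 libraries, and in Δ*sir2* the pair was at 87.4%. Against the single mutants, the share of *RPL9* differed by 8.58 points from Δ*fpr3* and by 16.5 points from Δ*fpr4*, of 6 and 4 pairs called (14.8% and 8.2% of all pairs).

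In the triple mutant the A share differed from Δ*fpr3*Δ*trf5* in 19 of 35 pairs, where 52.5% of all pairs were called. *RPL41* stood furthest apart, with 46.6% A in the triple mutant (interval 42.3% to 51.0%) and 70.8% in Δ*fpr3*Δ*trf5* (65.9% to 75.3%). *RPL41A* had 233 and 250 reads, so the shift lay in *RPL41B*. *RPL8* was at 16.3% A in the triple mutant and 32.2% in Δ*fpr3*Δ*trf5*, *RPL21* at 75.1% and 65.3%, *RPL27* at 57.0% and 65.9% and *RPL19* at 59.2% and 50.7%. *RPL27* moved the other way in the survey, being more A in the double mutant than in wild type. The whole coding sequences of *RPL41A* (chrIV:130407-130484, minus strand) and *RPL41B* (chrIV:221724-221801, minus) are printed to show that they differ in 1 of 78 bases, in capitals.
RPL41A: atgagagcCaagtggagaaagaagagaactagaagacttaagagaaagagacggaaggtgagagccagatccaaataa
RPL41B: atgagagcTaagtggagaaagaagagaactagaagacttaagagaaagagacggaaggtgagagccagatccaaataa
Reads that match both genes equally well fall under a mapping quality threshold, so the split of *RPL41* reads rests on this base and on the flanks and is uncertain.

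Loss of Fpr4 was compared in 3 pairs of libraries that share none. They were Δ*fpr4* with wild type, the double mutant with Δ*fpr3*, and the triple mutant with Δ*fpr3*Δ*trf5*. The pairs were fitted together in edgeR with the background as a block, which treats them as 3 replicates of Fpr4 loss although Fpr3 and Trf5 differ between them. In this fit 6 of 4574 genes (0.131%) were called at a Benjamini-Hochberg adjusted p under 0.05, *FPR4* itself among them (-10.78, adjusted p = 6.77e-07), and 0 of the 81. At an unadjusted p under 0.05 there were 4 of the 81 (4.94%, against 7.28% of all genes). They were *RPL41B* (0.66, SE 0.25), *RPL39* (0.56), *RPL8A* (-0.61) and *RPL38* (0.41), with adjusted p of 0.664 to 0.670. DESeq2 called 0 of the 81 and had 3 at an unadjusted p under 0.05. Of the 81 genes, 21 were above 0 in all 3 pairs, 7 below 0 in all 3 and 53 of mixed sign. These counts were not made over all genes, and signs depend on how libraries are scaled. Pair by pair, 67.9%, 42.0% and 61.7% of the 81 genes were above 0, against 40.8%, 51.2% and 62.0% of all genes. *RPL41B* was higher in each pair, by 0.17, 0.16 and 1.76 on the log2 scale in the order given. *RPL8A* differed by 0.08, -0.54 and -1.31, and *RPL9B* by 0.48, -1.08 and -1.15, so both were lower only where Fpr3 was also missing. Without the pair of Δ*fpr4* and wild type, *RPL9B* was called in the edgeR fit (-1.22, adjusted p = 0.00461), where 31 of 4416 genes were called. The pair left out is the one in which *RPL9B* was higher, so this call is no separate evidence.

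Over all 7 libraries, a chi-square test found the reads of 80 of the 81 genes unequal, where 68.6% of 4925 genes were called, *RPL15B* being the exception. The SD of log2(RPKM + 1) over the 7 libraries had a median of 0.27 in the 81 genes and 0.26 in 1702 genes with at least 50 reads in every library. Among the 80 large-subunit genes with that depth the steadiest were *RPL4B* (SD 0.10), *RPL3* (0.11), *RPL5* (0.14), *RPL32* (0.15) and *RPL12B* (0.15). *RPL3* ranged between 3590 and 4302 RPKM. The least steady were *RPL39* (0.79), *RPL41B* (0.73), *RPL9B* (0.60), *RPP1A* (0.55) and *RPL22B* (0.54). *RPL39* had 211 RPKM in Δ*fpr3*, 170 in Δ*fpr4*, 238 in the double mutant, 157 in Δ*sir2* and 155 in wild type, and 750 in the triple mutant and 275 in Δ*fpr3*Δ*trf5*. *RPL41B* had 1877, 1360.0, 2096, 1414 and 1208 RPKM in the survey libraries in the same order, and 5454 RPKM in the triple mutant against 1612 RPKM in Δ*fpr3*Δ*trf5*. For both genes the triple mutant alone stood far above the rest.

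The pair *RPL6* lies beside the deleted chaperone genes. *RPL6A* (chrXIII:123227-124172, minus strand) is separated from *FPR3* by 1902 bases and *RPL6B* (chrXII:1028854-1029768, plus strand) from *FPR4* by 1065 bases, with 0 genes between in each case. *RPL6A* had 937 RPKM in Δ*fpr3*, 930.2 RPKM in Δ*fpr4*, 915 RPKM in the double mutant, 1211 RPKM in Δ*sir2* and 913 RPKM in wild type. *RPL6B* had 940.2 RPKM in Δ*fpr3*, 864 RPKM in Δ*fpr4*, 897 RPKM in the double mutant, 1136 RPKM in Δ*sir2* and 964 RPKM in wild type. Neither was called in a library that lacked its neighbour.

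Of 12 listed regulators of ribosomal protein genes, 0 were called higher and 2 lower in Δ*fpr3* than in wild type, *ABF1* (-0.75) and *TBF1* (-0.60), which bind promoters. In Δ*fpr4* 0 were higher and 3 lower: *REB1* (-0.42), *TBF1* (-0.59) and the kinase *SCH9* (-0.39). In the double mutant 0 were higher and the repressor *STB3* was lower (-1.15, 25 and 62 reads). In Δ*sir2* *RAP1* was higher (0.45, 286 and 183 reads), and *SFP1* (-0.80), *STB3* (-0.90) and *TBF1* (-0.54) were lower. In the triple mutant the high-mobility group protein *HMO1* (0.73) and *SCH9* (0.57) were higher than in Δ*fpr3*Δ*trf5* and 0 were lower. Of 6 listed chaperones and loading factors of large-subunit proteins, *LOC1* was lower in Δ*fpr4* (-1.14), *SYO1*, which brings Rpl5 and Rpl11 into the nucleus, was higher in Δ*sir2* (0.39), and *SYO1* (0.42), *PUF6* (0.60) and *LOC1* (0.94) were higher in the triple mutant. Both listed stalk assembly factors were higher there, *MRT4* by 0.97 and *YVH1* by 0.88, and *MRT4* was lower in Δ*fpr4* (-0.56). Of all genes, 8.07% were lower in Δ*fpr3*, 9.27% in Δ*fpr4*, 9.36% in the double mutant and 14.6% in Δ*sir2*, where 5.2% were higher. In the triple mutant 20.7% of all genes were higher and 7.42% lower, and the 2 higher regulators (16.7% of the 12) were below that share. The lists are short, and their differences from all genes were not tested.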

How the data were processed

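RNA depleted of rRNA was sequenced as paired ends from 7 yeast strains, 1 library per genotype (1 replicate in each group). Per the methods, the authors aligned reads to sacCer3 with BWA, removed reads with a mapping quality below 5, collapsed duplicated fragments, and counted proper pairs by strand between the ends of each gene. The authors deposited, for each of 5110 genes, raw read counts and an RPKM value, in a column named for another unit, that was recomputed here from count, gene length and library total with differences of at most 0.098% in genes over 20 reads. Collapsing duplicates can lower the counts of short, highly expressed genes, and the quality threshold can lower those of near-identical pairs. All 81 members matched the R64 annotation in start and end.

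Libraries were grouped by genotype label and compared as 5 pairs. A gene entered the chi-square test with over 5 reads summed over both libraries. The methods give a minimum of over 5 reads per gene, the Benjamini-Hochberg adjustment and a fold threshold of 1.5. The sum over both libraries, the pseudocount of 1 on RPKM and the lower threshold of 1.3, which the methods use for gene ontology, were chosen here. Intervals of fold changes are exact binomial 95% intervals of the reads. With 3 reads or fewer not told from 0, shares above 0.000241% to 0.000478% of a library could be seen. Pairs of paralogs needed at least 20 reads in each library. The fit over 3 backgrounds used the quasi-likelihood test of edgeR 4.0.16 with TMM factors (2 residual degrees of freedom), with DESeq2 1.42.0 as an alternative, in R 4.3.3. Other steps used Python 3.11.15, scipy 1.17.1 and biopython 1.88. The rules were tested on simulated libraries.

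The members, lists and comparisons were chosen with earlier results of these data known. The comparisons of the double with each single mutant, and of the double mutant with the sum of both, were added after the data had been seen. Genes named are the 5 highest and lowest in wild type, up to 5 called rises and falls in each comparison, the 5 with the largest and smallest SD among those with at least 50 reads in every library, the pairs with the most extreme or most changed A share, the stalk genes, and called members of the lists. *RPL6A* and *RPL6B* were chosen for their position, and some paralogs and parts of counted groups were picked with their values known. The listed chaperone ACL4 was not analysed here.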

Additional observations from a re-analysis of the deposited data

Results flagged for a closer look

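*RPL9B* moved in opposite directions with the loss of Fpr4 in different backgrounds. Its log2 fold change was 0.48 in Δ*fpr4* over wild type (498 and 339 reads), -1.08 in the double mutant over Δ*fpr3* (149 and 342 reads) and -1.15 in the triple mutant over Δ*fpr3*Δ*trf5* (111 and 323 reads). Each background has 1 library per arm, so the difference between backgrounds was not tested over replicates. Within the survey the double mutant minus the sum of both single mutants was -1.57, with an interval of -1.91 to -1.22 that covers counting error only.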

How the results depend on the processing

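No paired analysis was possible by replicate number, because each genotype has 1 library and all share the number 1. The fit of Fpr4 loss instead paired libraries by background. Pseudocounts of 0.1 and 5, no filter on reads and an exact binomial test left each count of called large-subunit genes within 1.5 times. The fold threshold decided the counts most. A 1.5-fold threshold left 2 called genes in Δ*fpr3*, 1 in Δ*fpr4*, 4 in the double mutant, 6 in Δ*sir2* and 17 in the triple mutant, and at 2-fold 0, 0, 2, 0 and 5. With the median of all genes set to 0, 16 genes were called in Δ*fpr4*, 25 in the double mutant and 57 in Δ*sir2*. With TMM factors they were 15, 25 and 53. Over all genes TMM factors gave 291 higher and 260 lower in Δ*fpr4*, 354 and 304 in the double mutant and 396 and 486 in Δ*sir2*. In the triple mutant the median of the 81 genes became 0.054 with the median set to 0 and 0.048 with TMM factors. Over all genes with the median set to 0, the share of calls that were lower fell to 41.5% in Δ*fpr3*, against 65.8% before. It fell to 46.9% in Δ*fpr4* (70.5%), 45.9% in the double mutant (64.9%) and 52.2% in Δ*sir2* (73.8%), and was 50.8% in the triple mutant (26.4%).

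With Δ*sir2* as the reference in place of wild type, 10 genes were called in Δ*fpr3* (1 higher and 9 lower) and 20 in Δ*fpr4* (0 and 20). In the double mutant 2 were higher and 15 lower. The medians were -0.20 for Δ*fpr3*, -0.26 for Δ*fpr4* and -0.20 for the double mutant. Of all genes, 401 of 4774 were then higher and 212 lower in Δ*fpr3*. They were 523 and 353 of 4775 in Δ*fpr4*, and 476 and 274 of 4763 in the double mutant. In Δ*fpr3* *RPL14A* became -0.13 and *RPL23B* -0.084. In Δ*fpr4* *RPL1B* became -0.011, *RPL14A* -0.13, *RPL26B* -0.17 and *RPL30* -0.0049, and in the double mutant *RPL26B* became -0.18. The A share in Δ*fpr3* was called different in 6 pairs, and the count over all pairs was not kept at this setting. In Δ*fpr3* the difference was -0.11 points for *RPL9* and -1.14 for *RPL7*, and in Δ*fpr4* it was -1.23 points for *RPL7*. The cause was not tested. *RPL7B*, *RPL9B* and *RPL8A* kept their direction in the double mutant. Other minima of reads and a chi-square test left the counts of pairs within 1.5 times. In the fit of Fpr4 loss, leaving out 1 background gave between 0 and 1 called members, with 14 to 31 genes called in all. The fit with no background block gave 0 members and 1 gene in all. The median SD was 0.17 over the 5 survey libraries. Depth limits *RPL15B*, with 7 to 37 reads in a library, and no alternative replaces the missing replicates.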
